A study of Arabidopsis thaliana with 12 samples.

Results

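The 47 genes described here had the brightest probes in wild-type (WT) Arabidopsis thaliana on a microarray of 3437 measured probes. The 692 probes annotated to exactly 1 gene were ranked by the mean of their deposited linear values over the 6 WT samples, and the first 60 were taken. Of these 60, 13 were left out. The rule names 7 of them: PSBW, LHB1B2, PSAN, AT3G09080, PSB27, PSBY and CHLP, for which AT1G74470 was taken. The others were 4 pentatricopeptide repeat genes and 2 chaperone genes. The 6 genes of these classes were assigned from general knowledge, because the tables used hold no gene descriptions, and the genes kept were not checked against descriptions for the excluded classes, so the number 47 carries that uncertainty. The array compared 6 samples titled stn7, a mutant of the kinase gene STN7, with 6 samples titled WT, all in ecotype Columbia 0. The labels used here name no treatment, plant age, growth condition, organ or mutant allele. Titles set the groups, although 5 of the 6 samples titled stn7 have WT as their source name. In each group the samples numbered 1 and 2, 3 and 4, and 5 and 6 deviated together from the group mean, so these pairs were averaged and each mean was taken as 1 replicate, giving n = 3 per group. For stn7 samples 1 and 2 this correlation of deviations was 0.188, hardly above that of stn7 sample 1 with its next most similar sample, WT sample 1 (0.170). Whether replicates are separate plants is not stated in the labels, and the p-values therefore reflect only how these samples spread, which may be technical.

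STN7 is a protein kinase of the thylakoid membrane. By phosphorylating antenna proteins that serve photosystem II it shifts excitation energy between both photosystems, a process called state transitions, and it is also needed for the slower adjustment of photosystem levels to light quality. Because nuclear genes supply most chloroplast proteins, a mutant of such a kinase has been used to ask whether the redox state of the thylakoid is read out in nuclear transcript levels.

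A probe's intensity depends on the probe as well as on its transcript, so these values do not order the transcripts by abundance, and the genes are called bright rather than abundant below. The mean deposited intensity of the 47 genes in WT ran from 1.39 to 49.2, with a median of 2.24, against a median of 0.291 over all 692 single-gene probes. Of all 3437 probes, 7 that carry no single gene name were brighter in WT than the brightest gene described here, and the brightest of them had a WT mean of 168.2. None of the 47 genes had a value of exactly 0 in any sample. At the lower limit of the choice, AT5G17630 (rank 59) and AT5G63290 (rank 60) had WT means of 1.40 ± 0.138 and 1.39 ± 0.192 (SD, n = 3), while AT3G12000 and ATSPS4F, at ranks 61 and 62, had 1.38 and 1.37. The limit therefore separates probes whose levels differ by less than the spread between replicates. RefSeq's gene table gave 7 of the 47 a gene symbol, and the other 40 are known here by locus tag only, so no role is stated for them. None of the marker genes listed for leaf, root, seed, senescence and pollen was on a single-gene probe, so the sampled tissue was not checked.

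**Figure D1:**
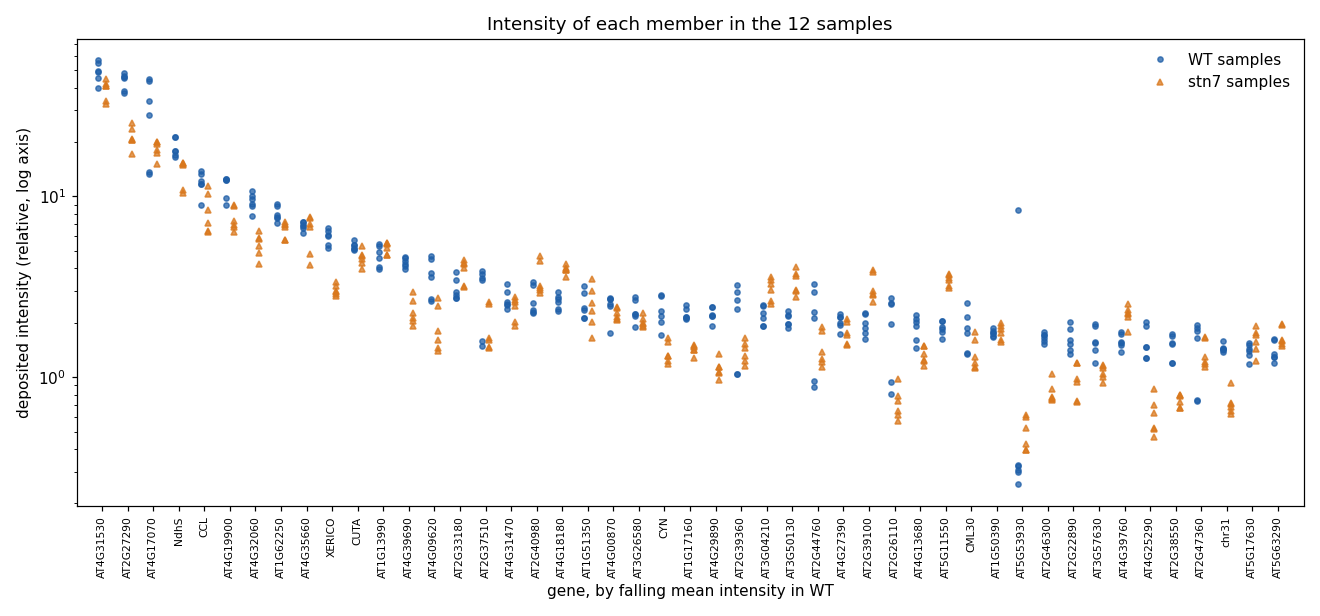
Deposited relative intensity (log axis) of each of the 47 genes, ordered by falling WT mean, with a point for each of the 6 WT samples (circles) and the 6 stn7 samples (triangles). Only AT4G31530, AT2G27290, AT4G17070 and NdhS lie mostly above 10 in both groups, and AT5G53930 has 1 WT sample at 8.45 with all its other values under 1.

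The 47 genes together held a smaller share of the summed array intensity in stn7. In WT they held 7.38% to 7.94% of the sum of a sample, and in stn7 5.27% to 6.28%, so the groups did not overlap. The means were 7.67% ± 0.168 in WT and 5.77% ± 0.422 in stn7 (SD, n = 3 averaged replicates). The genes were chosen by their WT values, which enter this share and favour a higher share in WT, so the share is given without a test. Without the 4 brightest genes the shares were 3.80% ± 0.110 and 3.17% ± 0.142.

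Most of the genes were also among the brightest in stn7, whose values the rule did not use. Of the 47 genes 38 were also among the 60 brightest single-gene probes in stn7, including all 11 with a WT mean of 5 or more. AT4G31530 was the brightest single-gene probe in both groups, and AT2G27290, AT4G17070 and NdhS held ranks 3, 4 and 5 in both. Among these 11 XERICO moved furthest, from rank 12 to rank 23, and AT4G32060 went from 8 to 12. The 9 genes that left the top 60 were AT4G29890, at rank 70 in stn7, AT2G22890 (90), AT3G57630 (74), AT2G46300 (122), AT2G38550 (147), AT2G26110 (154), chr31 (157), AT4G25290 (197) and AT5G53930 (247). All but AT4G29890 had WT means under 2, and 7 of the 9, all but AT3G57630 and AT5G53930, are among the genes that fell in the test below. In the other direction AT5G11550 went from rank 42 to rank 18, AT2G39100 from 38 to 21 and AT4G18180 from 25 to 15.

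**Figure D2:**
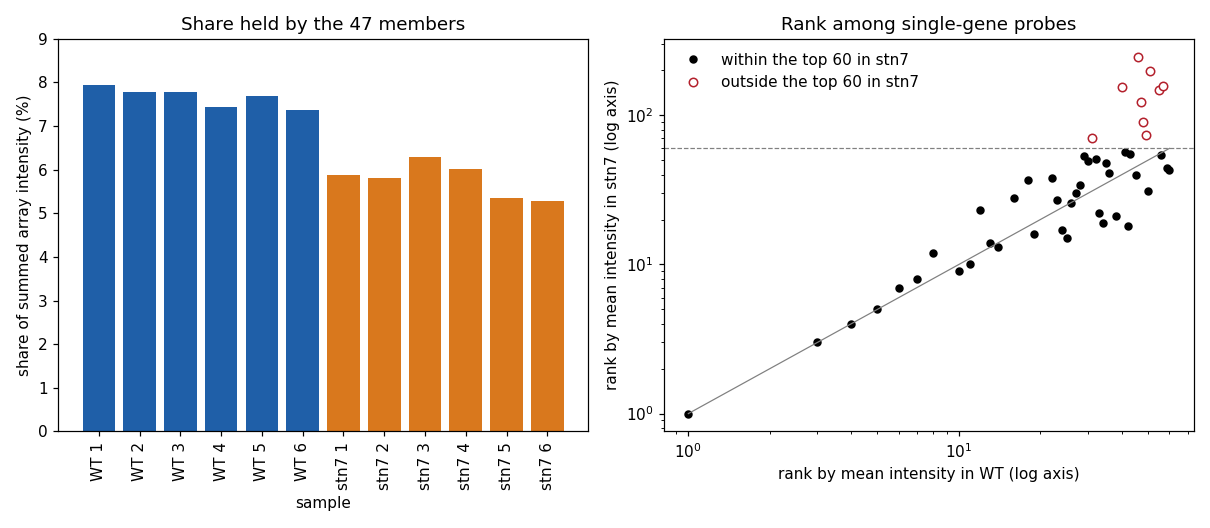
Left, the share of the summed deposited intensity of each sample held by the 47 genes (%), with every WT sample at 7.38% or more and every stn7 sample at 6.28% or less. Right, rank among 692 single-gene probes by mean intensity in WT and in stn7 (log axes), with the solid line at equal rank and the dashed line at rank 60, above which the 9 open points lie.

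For the test of stn7 against WT the values were quantile-normalized, set to a floor and put on the log2 scale, and all 3248 features were fitted with limma, with Benjamini-Hochberg adjustment over all of them and calls at an adjusted p under 0.05. Of the 47 genes 15 passed, 4 higher and 11 lower in stn7. Over all features 15.2% passed, 6.53% higher and 8.68% lower. Among the 369 features with a mean deposited WT value at least that of the dimmest of the 47 genes, 25.5% passed, 7.32% higher and 18.2% lower. The WT values that chose the genes are also the WT side of this difference, so the choice favours lower values in stn7 and nothing is read from the counts. The median difference was -0.23 log2 over the 47 genes and 0.05 log2 over all features. Had the genes been ranked by their stn7 mean, the median would have been -0.01 log2 with 7 genes higher and 4 lower, and ranked over all 12 samples it would have been -0.11 log2 with 6 higher and 7 lower.

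Scaling moved these counts as well. Of the 47 genes 13 passed in the values as deposited (14.4% of all features did), 3 higher and 10 lower, against 8.90% and 5.51% of all features. With each array centred on its median 18 passed (15.2% of all features did), 1 higher and 17 lower, against 4.34% and 10.9% of all features. In the deposited values all 6 stn7 samples lay below all 6 WT samples in 15 of the 47 genes, against 7.54% of all probes, and above them in 5, against 15.2% of all probes.

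Differences on this array follow the probe number, in 48 sets of probe numbers that recur at a fixed spacing, whose median stn7 minus WT differences ran from -0.62 to 0.63 log2. Of the 47 genes 37 (78.7%) lay in sets with a negative median, against 50.6% of all features. After each sample was centred within these sets, called set centring below, 7 of the 47 genes passed (5.67% of all features did), 2 higher and 5 lower, against 1.79% and 3.88% of all features, and all 7 were among the 15. The median difference of the 47 genes was then -0.062 log2. The part of print position, array layout or labelling in these differences was not tested.

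**Figure D3:**
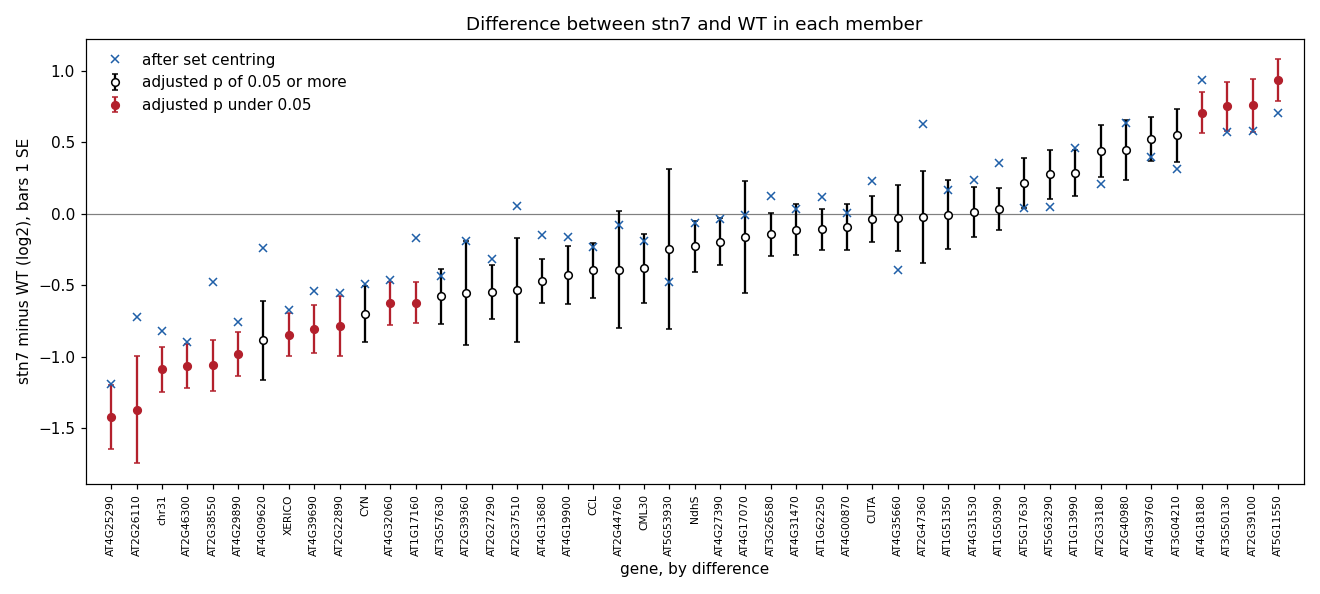
Difference between stn7 and WT (log2) for each of the 47 genes in quantile-normalized values, ordered by size, with bars of 1 SE and filled points where the adjusted p was under 0.05; crosses give the difference after set centring. The 11 filled points on the left run from -1.42 to -0.62 and the 4 on the right from 0.71 to 0.94, and most crosses on the left lie nearer to 0 than their points.

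Among the 7 genes with a symbol, XERICO and chr31 fell. XERICO encodes a small RING-H2 zinc finger protein, whose overexpression raises abscisic acid levels and drought tolerance. Its deposited intensities had a lowest, median and highest value of 5.21, 6.06 and 6.67 in WT and of 2.83, 2.98 and 3.34 in stn7. The groups were clearly apart, with all stn7 samples below 3.4 and all WT samples above 5.2. On the normalized scale XERICO was 1.80-fold lower (log2 difference -0.84, SE 0.15, n = 3 per group, limma adjusted p = 0.0174). It passed again after set centring (-0.67 log2, limma adjusted p = 0.0422), but not after set centring with the replicate number as a block.

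The gene chr31 is named for chromatin remodeling 31 and belongs to the SNF2 family of ATPases, many of which move or open nucleosomes. Its lowest, median and highest intensities were 1.39, 1.43 and 1.59 in WT and 0.623, 0.698 and 0.929 in stn7. Its WT samples were among the most even of the 47 genes, and every stn7 sample lay below all of them. The difference was -1.09 log2 (SE 0.16), a 2.13-fold lower level (limma adjusted p = 0.0108), and -0.82 log2 after set centring (limma adjusted p = 0.0298).

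NdhS, the subunit of the chloroplast NADH dehydrogenase-like complex that binds ferredoxin, did not pass. This complex returns electrons from ferredoxin to the plastoquinone pool in cyclic electron flow around photosystem I. NdhS was the brightest gene with a symbol, with lowest, median and highest intensities of 16.5, 17.9 and 21.4 in WT and 10.5, 14.96 and 15.3 in stn7. All deposited stn7 values lay below all WT values, yet the normalized difference was -0.23 log2 (SE 0.18, limma adjusted p = 0.425), and -0.06 log2 after set centring. Median centring gave -0.69 log2, which did not pass either (limma adjusted p = 0.0724).

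CCL, a CCR-like gene whose unstable transcript cycles with the circadian clock, had lowest, median and highest intensities of 8.996, 11.9 and 13.8 in WT and 6.32, 7.79 and 11.4 in stn7. These groups overlapped, because stn7 samples 1 and 2 were as high as some WT samples, and the difference of -0.40 log2 (SE 0.19) did not pass (limma adjusted p = 0.1997). CUTA, a member of the CutA protein family, first known in Escherichia coli for tolerance to copper and other divalent cations, was at 5.07, 5.27 and 5.75 in WT and at 3.94, 4.58 and 5.33 in stn7. Its difference of -0.04 log2 (SE 0.16) was among the 6 nearest to 0, although median centring gave -0.45 log2, which did not pass (limma adjusted p = 0.132).

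CYN encodes cyanase, which breaks down cyanate with bicarbonate to ammonia and carbon dioxide. Its lowest, median and highest intensities were 1.72, 2.25 and 2.85 in WT and 1.18, 1.31 and 1.65 in stn7, with no overlap. Its difference of -0.70 log2 (SE 0.20) missed the threshold (limma adjusted p = 0.0511), and it passed with the replicate block (limma adjusted p = 0.0484) and with median centring (-0.97 log2). After set centring it did not pass (-0.49 log2, limma adjusted p = 0.122). CML30, a calmodulin-like protein of the family of calcium sensors, was at 1.34, 1.82 and 2.57 in WT and 1.12, 1.25 and 1.78 in stn7. Its groups overlapped and its difference of -0.38 log2 (SE 0.24) did not pass (limma adjusted p = 0.319). CYN and CML30 both had their highest values of each group in samples 5 and 6.

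**Figure D4:**
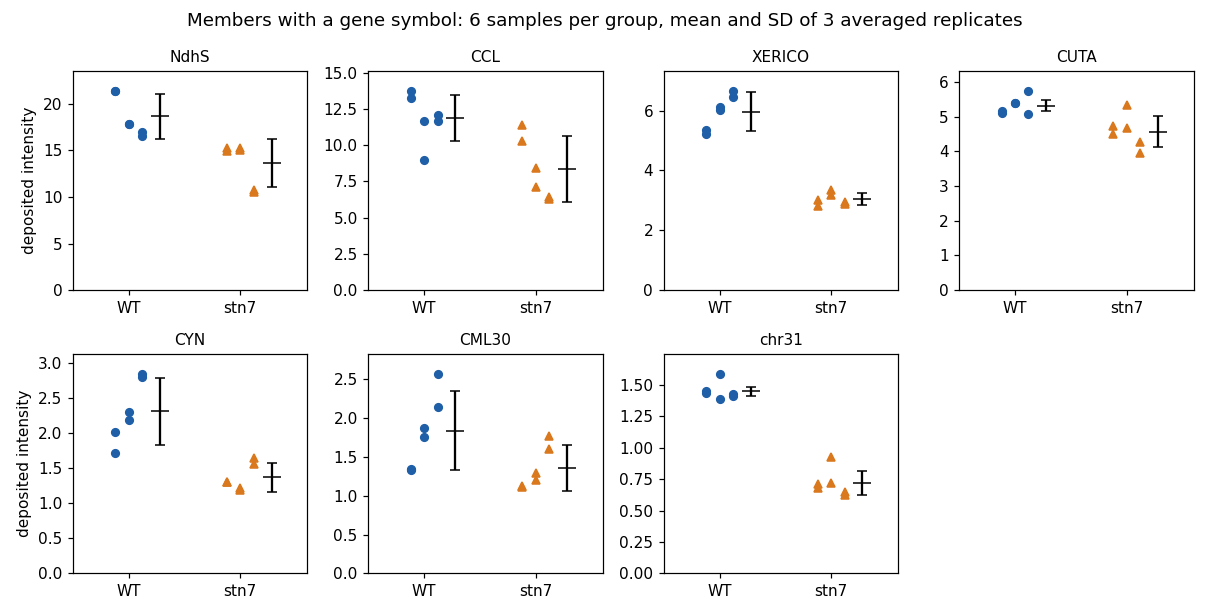
Deposited relative intensity of the 7 genes with a symbol in the 6 WT samples (circles) and the 6 stn7 samples (triangles), averaged pairs side by side at the same position, with the mean and SD of the 3 averaged replicates as a bar. XERICO, chr31, NdhS and CYN show no overlap between the groups, with XERICO at 5.21 to 6.67 in WT and 2.83 to 3.34 in stn7.

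The other 9 genes that fell are known by locus tag only. AT4G25290 had the largest fall, with lowest, median and highest intensities of 1.27, 1.46 and 2.01 in WT and 0.469, 0.577 and 0.862 in stn7. It was 2.68-fold lower (-1.42 log2, SE 0.22, limma adjusted p = 0.0121), and after set centring -1.19 log2 (limma adjusted p = 0.0132). Its groups did not overlap, and it alone of the 15 still passed without WT replicate 1. AT2G46300 went from 1.53, 1.68 and 1.77 in WT to 0.750, 0.771 and 1.03 in stn7 and was 2.09-fold lower (-1.06 log2, SE 0.15, limma adjusted p = 0.0108). AT4G29890 went from 1.93, 2.18 and 2.45 to 0.966, 1.103 and 1.34 and was 1.97-fold lower (-0.98 log2, SE 0.15, limma adjusted p = 0.0121). In both the highest stn7 sample lay clearly below the lowest WT sample, and both passed again after set centring, at -0.90 and -0.75 log2, AT4G29890 not with the replicate block as well.

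A further 6 genes fell but did not pass after set centring. AT2G38550 had lowest, median and highest intensities of 1.19, 1.54 and 1.74 in WT and 0.675, 0.756 and 0.796 in stn7, 2.08-fold lower on the normalized scale (limma adjusted p = 0.0146). Its difference went from -1.06 to -0.47 log2 with set centring. AT4G32060, the only gene besides XERICO with a WT mean of 5 or more that passed, was at 7.83, 9.36 and 10.7 in WT and 4.20, 5.57 and 6.41 in stn7, and its difference went from -0.63 (limma adjusted p = 0.0325) to -0.47 log2. AT4G39690 was at 3.94, 4.30 and 4.61 in WT and 1.91, 2.19 and 2.97 in stn7 and went from -0.81 (limma adjusted p = 0.0244) to -0.54 log2. In these 3 genes all stn7 samples lay below all WT samples. AT1G17160 was at 2.11, 2.15 and 2.51 in WT and 1.27, 1.45 and 1.51 in stn7, and its difference of -0.62 log2 (limma adjusted p = 0.0297) became -0.17 log2, the largest relative loss among the 15. AT2G22890 was at 1.35, 1.56 and 2.01 in WT and 0.731, 0.956 and 1.20 in stn7 (-0.78 log2, limma adjusted p = 0.0455), and it missed the threshold in the deposited values too (limma adjusted p = 0.0519). AT1G17160 and AT2G22890 did not overlap between the groups, unlike AT2G26110, the sixth, which is described with the uneven genes below.

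Of the 4 genes that rose, AT5G11550 changed most. Its lowest, median and highest intensities were 1.62, 1.87 and 2.05 in WT and 3.09, 3.48 and 3.73 in stn7, 1.91-fold higher on the normalized scale (0.94 log2, SE 0.15, limma adjusted p = 0.0121). AT4G18180 went from 2.32, 2.66 and 2.95 to 3.56, 3.94 and 4.23 and was 1.63-fold higher (0.71 log2, SE 0.15, limma adjusted p = 0.0244). Both rose without overlap of the groups and passed again after set centring, at 0.70 and 0.93 log2. With arrays centred on their median AT5G11550 passed at 0.65 log2 and AT4G18180 did not (0.36 log2, limma adjusted p = 0.182). AT3G50130 went from 1.87, 2.07 and 2.33 to 2.78, 3.32 and 4.06 and was 1.68-fold higher (limma adjusted p = 0.0296). AT2G39100 went from 1.62, 1.94 and 2.27 to 2.61, 2.94 and 3.89 and was 1.69-fold higher (limma adjusted p = 0.0357). In this pair too every stn7 sample lay above every WT sample, but neither passed after set centring (0.57 and 0.58 log2) or with median centring (0.45 and 0.46 log2), and AT2G39100 did not pass in the deposited values (limma adjusted p = 0.0582). AT3G04210 (0.55 log2, SE 0.18) and AT4G39760 (0.52 log2, SE 0.15) completed the 6 largest positive differences and did not pass.

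The other 32 genes did not pass, with differences between -0.88 and 0.55 log2, SEs between 0.14 and 0.56 log2 and 17 of them within 0.3 log2 of 0. That a gene missed the threshold does not show that its level was the same in both groups. AT4G31530, the brightest, had lowest, median and highest intensities of 39.6, 49.2 and 56.7 in WT and 32.3, 40.8 and 44.8 in stn7, and its normalized difference was 0.01 log2 (SE 0.17) against -0.33 log2 in the deposited values. AT2G27290 was at 37.5, 45.6 and 48.1 in WT and 17.1, 20.6 and 25.4 in stn7, a ratio of deposited means of 2.05 with no overlap. Its call depended on the scaling: the normalized difference was -0.55 log2 (limma adjusted p = 0.0865), and it passed in the deposited values (-1.04 log2, limma adjusted p = 0.0235) and with median centring (-1.27 log2). AT4G19900, at 8.99, 12.3 and 12.4 in WT and 6.37, 7.13 and 8.98 in stn7, passed only with median centring among the scalings (-0.82 log2, limma adjusted p = 0.0296, against -0.43 log2). Quantile normalization sets values of different arrays equal by rank over the whole range, and few probes lie at this end of it. Whether this bears on the dependence on scaling was not tested.

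Of the bright genes AT1G62250 (7.14, 7.79 and 9.10 in WT and 5.76, 6.85 and 7.26 in stn7, -0.11 log2, SE 0.14) and AT4G35660 (6.26, 6.91 and 7.26 in WT and 4.16, 6.88 and 7.71 in stn7, -0.03 log2, SE 0.23) also did not pass. With median centring these 2 differences were -0.52 and -0.38 log2 and after set centring 0.12 and -0.39 log2, and they passed in neither. Beside AT4G31530, AT4G35660 and CUTA, the 6 smallest differences on the normalized scale were those of AT1G51350 (-0.01 log2, SE 0.24), AT2G47360 (-0.02 log2, SE 0.32) and AT1G50390 (0.03 log2, SE 0.15). All 6 were negative with median centring, from -0.56 to -0.21 log2, and ran from -0.39 to 0.63 log2 after set centring, and none passed in either. AT1G50390 had intensities of 1.66, 1.75 and 1.88 in WT and 1.56, 1.79 and 1.99 in stn7, which overlapped. In AT2G47360 by contrast uneven WT replicates lay on both sides of the stn7 samples.

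The coefficient of variation (CV) over the 3 WT replicates had a median of 13.3% in the 47 genes, against 15.8% in single-gene probes outside the top 60, and was under 10% in 16 genes and over 30% in 7. In 6 of these 7, AT4G17070, AT2G37510, AT2G39360, AT2G44760, AT2G26110 and AT2G47360, WT samples 5 and 6 lay below WT samples 1 to 4, whose mean was 2.38 to 2.90 times theirs. In AT4G17070 WT samples 1 to 4 had intensities of 28.1 to 44.5 and WT samples 5 and 6 had 13.2 and 13.7, while the 6 stn7 samples had 15.2 to 20.1. The stn7 samples thus lay between the WT replicates, and the normalized difference was -0.16 log2 (SE 0.39). In AT2G26110, the only called gene among the 6, WT samples 1 to 4 had 1.96 to 2.75, WT samples 5 and 6 had 0.936 and 0.802, and the stn7 samples 0.570 to 0.974. Its difference was -1.37 log2 (SE 0.38, limma adjusted p = 0.0481), which was lost with set centring (-0.72 log2), in the deposited values (-1.28 log2) and with the replicate block (limma adjusted p = 0.0811).

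These 6 genes were picked for low values in WT samples 5 and 6, so leaving out WT replicate 3, the average of these samples, has to make each difference more negative, and the values without it are a description only. AT2G39360 was then at -1.01 log2, past the threshold, against -0.55 log2 with all replicates, and AT2G26110 at -1.83 log2. AT4G17070 (-0.61 log2), AT2G37510 (-0.93 log2), AT2G44760 (-0.86 log2) and AT2G47360 (-0.39 log2) did not pass in that fit, where their differences with all replicates had been -0.16, -0.53, -0.39 and -0.02 log2. All 6 genes lie in probe-number sets with a negative median difference, between -0.62 and -0.19 log2. Over all 47 genes, uneven or not, WT samples 5 and 6 lay below WT samples 1 to 4 in 11 and above them in 16. Stn7 samples 5 and 6 lay below stn7 samples 1 to 4 in 15 and above them in 17. No share over all probes is given beside these counts, so nothing is read from them. Whether growth, extraction or hybridization set these samples apart was not tested.

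AT5G53930, the last of the 7 uneven genes, goes against the description of these genes as bright. Its WT intensity was 8.45 in sample 5 and between 0.255 and 0.327 in the other 5 WT samples, close to the median of all probes in WT sample 5 (0.297), and its stn7 values were 0.393 to 0.621. WT sample 6, which otherwise deviates together with sample 5, held the lowest of its values. It is among the 47 genes only through WT sample 5, and ranked by the mean of normalized log2 values it was not among the first 60. Without WT replicate 3 its difference was 0.49 log2 against -0.25 log2 (SE 0.56) with all replicates, and neither passed.

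The calls rested on few replicates. Without WT replicate 2 or without stn7 replicate 1 none of the 47 genes passed in limma. In each of these fits 22 of the 47 had an unadjusted limma p under 0.05, against 838 and 947 of the 3248 features. Without WT replicate 1 only AT4G25290 passed. The loss ran across the whole array, with 30, 4 and 45 of the 3248 features passing in these 3 fits. Without one of the other averaged replicates 9 or 10 of the genes passed, and 218 to 284 features. With 1 of the 12 samples left out and its partner kept, between 12 and 15 of the genes and 419 to 493 features passed, and 11 of the 15 genes passed in all 12 such fits. The exceptions were AT2G26110 (3 of 12), AT2G22890 (4 of 12), AT4G32060 (11 of 12) and AT3G50130 (11 of 12). No called gene of the 47 changed direction in any fit run.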

How the data were processed

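Transcript levels were read from 1 table of the series with a column per sample. Its values, as deposited by the authors, were linear intensities that averaged 1.01 to 1.07 per sample. How they were scanned, background-corrected and scaled is not given in the sources used. Of 3439 probes 3437 had values: 692 were annotated to 1 gene (690 found in RefSeq's TAIR10.1 gene table), 869 to several genes and 1876 to none. Of the 13 genes left out, 7 were matched to names in the rule and 6 from general knowledge of their class, since no gene descriptions were used. Of the 7, AT1G74470 is listed by its locus tag and was taken as the CHLP of the rule.

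Intensities were quantile-normalized, set to a floor at their 10th percentile (0.0702, or -3.83 log2) and put on the log2 scale. Probes at the floor in all 12 samples (188) were dropped, and the 1 gene with 2 probes was averaged, which left 3248 features. Consecutive samples of a group were averaged, a decision taken from the values. The test was limma's moderated one (version 3.58.1, R 4.3.3; lmFit, then eBayes), two-sided, with Benjamini-Hochberg adjustment, without a replicate block. Same-numbered averaged replicates of both groups correlated at 0.171, 0.120 and 0.0901 in their deviations, which is low but always positive. For single samples 1, 2, 4, 5 and 6 the most similar sample outside the averaged pair was the same-numbered one of the other group. WT sample 3 was an exception. Whether the numbers pair the groups was not tested, and the replicate block was run as an alternative. Set centring subtracted, in each sample, the median deviation of each set (6 adjacent probe numbers and their recurrences at the fixed spacing) from the probe means.

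The genes, lists and the set centring were chosen with earlier results of these data known. Named genes are the 10 with the highest WT mean, every called gene, the 6 largest rises, falls and smallest differences, and the 4 ranks on each side of the limit. The words fixed for 10 functional groups matched no gene of the 47, because the gene table holds symbols and synonyms but no descriptions. Genes with a symbol and genes with uneven WT replicates were named after their values were seen. Alternatives covered scaling, floor, dim features, averaging, the replicate block, set centring, the variance model, samples and replicates left out and the ranking. For the source names, only the 1 stn7 sample with the mutant source name was set against WT. No fit grouped the samples by source name. Plots were made in Python 3.11.15 with matplotlib 3.10.9.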

Additional observations from a re-analysis of the deposited data

Results flagged for a closer look

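In each group of 6 samples the gap between the highest or lowest value and its neighbour was compared with the whole range, on the normalized log2 scale, for all 47 genes. Of 94 such groups 2 had a gap above the critical value of Dixon's test. Chance alone flags about 1 in 20 groups only where all 6 values are independent. These samples deviated in pairs, so the 2 flags are not compared with that rate. In AT5G53930 WT sample 5 stood at 2.88 log2 and the other 5 WT samples between -1.71 and -1.55 log2, a gap of 0.965 of the range. In AT4G00870 WT sample 2 stood at 0.79 log2 and the others between 1.28 and 1.45 log2, a gap of 0.751 of the range, and its difference between stn7 and WT was -0.09 log2 (SE 0.16) and did not pass (limma adjusted p = 0.733).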

How the results depend on the processing

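Against 494 features and 15 of the 47 genes called in limma, and a median difference of -0.23 log2 over the 47, other scalings, floors, the filter on dim features and the variance model gave 468 to 535 features and 13 to 18 genes. As deposited the values had a median of -0.38 log2, and centred on array medians -0.61 log2. Taken as 12 separate samples, 1283 features and 27 genes passed, and 1442 and 29 with the replicate block as well. The replicate block on averaged samples gave 407 features and 15 genes, with AT2G26110 lost and CYN gained. Set centring gave 184 features and 7 genes, and with the replicate block 117 and 5, both with a median of -0.062 log2. The cause of these shifts was not tested.

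Without 1 averaged replicate between 4 and 284 features and between 0 and 10 genes passed, with medians between -0.31 and -0.20 log2. Without 1 sample these were 419 to 493 features, 12 to 15 genes and -0.25 to -0.17 log2. Stn7 sample 1, the 1 sample with the mutant source name, against WT gave 8 features and 0 genes in limma, 17 genes having an unadjusted p under 0.05. That fit sets an unaveraged sample against means of sample pairs and assumes that it varies like them, so no count of calls is given.

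Ranking over all 12 samples gave a median of -0.11 log2 with 13 of 47 genes called, ranking over stn7 -0.013 log2 with 11 of 48. The first 40 probes held 32 genes after the exclusions, of which 9 were called, with a median of -0.18 log2. Of these 32 genes 25 were among the first 40 in stn7. The first 100 probes held 78 genes, of which 20 were called, with a median of -0.18 log2. Of these 78 genes 58 were among the first 100 in stn7, against 38 of 47 as reported. With all 60 probes kept, an alternative chosen after seeing the data, 18 were called, the median was -0.17 log2 and 48 stayed in the top 60. Signal over background is not known, and 3 replicates per group limit the precision.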
